A study of Mus musculus with 12 samples.

Results

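Iron and zinc handling was followed through 10 genes, which were taken by symbol from the deposited expression table of 55335 mouse genes. All 10 were found, and all 10 passed the filter of at least 1 FPKM in at least 3 of the 12 libraries, as did 12622 genes in all. Levels are given as FPKM, in which the fragments of a gene are divided by its length and by the library's mapped fragments. The genes store iron (Fth1 and Ftl1), export it (Slc40a1), bring it into the cell or the cytosol (Tfrc, Slc11a1 and Slc11a2), bind zinc (Mt1 and Mt2) or carry zinc across membranes (Slc39a14 and Slc30a1).

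The libraries came from bone marrow-derived macrophages (BMDMs), which are cells grown from flushed mouse bone marrow with macrophage colony-stimulating factor. Per the methods, donors were C57BL/6 mice of 8 weeks, red cells were lysed, and the cells that adhered after 7 days were used. There were 4 groups of 3 libraries. BMDMs of the genotypes wild-type and Nlrp3-/- were each left untreated (control) or given both agents (LPS+ATP). LPS, a bacterial lipopolysaccharide, readies the NLRP3 inflammasome, which extracellular ATP then sets off. By the labels, LPS lasted 4 hours and ATP 30 min, whereas the methods describe LPS for 12 hours and 3 mM ATP for 2 hours. Nothing states whether the libraries of a group came from separate mice or cultures, so p-values measure the spread between these libraries, which may be technical.

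In GENCODE annotation on GRCm38 all 10 are protein-coding genes. The iron stores and exporter are Fth1 (ENSMUSG00000024661) at chr19:9980598-9985098, Ftl1 (ENSMUSG00000050708) at chr7:45457944-45459884 and Slc40a1 (ENSMUSG00000025993) at chr1:45908068-45926523. The importers are Tfrc (ENSMUSG00000022797) at chr16:32608920-32632794, Slc11a1 (ENSMUSG00000026177) at chr1:74375195-74386062 and Slc11a2 (ENSMUSG00000023030) at chr15:100387898-100425072. The zinc genes are Mt1 (ENSMUSG00000031765) at chr8:94179082-94180327, Mt2 (ENSMUSG00000031762) at chr8:94172664-94173568, Slc39a14 (ENSMUSG00000022094) at chr14:70303469-70351425 and Slc30a1 (ENSMUSG00000037434) at chr1:191906767-191913247. Ftl1, Slc40a1, Slc11a2 and Slc39a14 lie on the minus strand and the other 6 on the plus strand.

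Macrophages recycle iron. They take it up as transferrin bound to its receptor TfR1, the product of Tfrc, or as heme from engulfed red cells. Iron is carried out of endosomes by DMT1 (Slc11a2) and out of phagosomes by NRAMP1 (Slc11a1), stored in ferritin shells of H chains (Fth1) and L chains (Ftl1), and released through ferroportin (Slc40a1), the known exporter of iron from animal cells. Several of these mRNAs are known to carry iron-responsive elements (IREs), hairpins to which iron regulatory proteins bind when iron is scarce: at the 5′ end this blocks translation, and in the 3′ UTR of Tfrc it protects the mRNA from decay. Zinc is handled by importers of the ZIP family such as ZIP14 (Slc39a14), which also carries iron, by exporters such as ZnT1 (Slc30a1), and by metallothioneins (Mt1 and Mt2), small cysteine-rich proteins that bind zinc. The factor MTF1 is known to switch on metallothionein genes and Slc30a1 through metal response elements (MREs) when zinc rises.

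The hairpins are shown because iron regulatory proteins are known to bind such elements, and 4 of the 10 genes held a match of letters to the form searched, with no binding measured. A pattern of 17 bases was searched in GENCODE protein-coding transcripts: an unpaired C, 5 paired bases, the 6-base loop CAGTGN, and the 5 bases that pair with them, with G-T pairs allowed. It was found in transcripts of 294 of 21901 genes (1.34%). Capitals mark the loop. In the 5′ UTR lay those of Fth1 (GRCm38 chr19:9982738-9982754, plus strand), Ftl1 (chr7:45459785-45459801, minus strand) and Slc40a1 (chr1:45925471-45925487, minus strand).
Fth1: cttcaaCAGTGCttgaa
Ftl1: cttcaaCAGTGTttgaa
Slc40a1: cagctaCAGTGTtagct

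Tfrc held 4 such hairpins in its 3′ UTR, on the plus strand of chromosome 16. They lie at chr16:32631225-32631241, chr16:32631604-32631620, chr16:32631669-32631685 and chr16:32631716-32631732, in the order of the lines that follow.
Tfrc A: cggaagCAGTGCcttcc
Tfrc B: cgggagCAGTGTcttcc
Tfrc C: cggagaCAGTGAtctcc
Tfrc D: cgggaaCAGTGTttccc

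The Fth1 and Ftl1 hairpins share the stem, whereas those of Slc40a1 and Tfrc have stems of their own. No stretch of this form was in the searched transcripts of the other 6 genes, which says only that these letters were not there, and elements of another form would be missed. The expression table measures mRNA levels, and neither translation nor protein was measured here.

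The promoters of Mt1 and Mt2 are shown because these neighbouring genes are known MTF1 targets and, as given further on, their levels moved apart. RefSeq windows (GRCm38.p6, 250 bases before to 50 after each annotated start) were matched for 7 of the 10 genes. MRE cores were searched as TGCACNC and TGCGCNC on both strands. Of 32851 windows of the same length in all genes, 25.7% held at least 1 core, 1.97% at least 3 and 0.517% at least 4. Mt2 held 4 and Mt1 held 3, while none was in the windows of Fth1, Ftl1 and Slc11a1. The 250 bases before the start are printed with cores in capitals, for Mt1 at chr8:94178839-94179088 and for Mt2 at chr8:94172368-94172617, both on the plus strand.
Mt1: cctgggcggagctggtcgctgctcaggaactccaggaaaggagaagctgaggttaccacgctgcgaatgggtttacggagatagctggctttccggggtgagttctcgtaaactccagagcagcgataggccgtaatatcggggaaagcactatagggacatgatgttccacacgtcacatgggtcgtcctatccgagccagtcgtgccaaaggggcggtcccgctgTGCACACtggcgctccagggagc
Mt2: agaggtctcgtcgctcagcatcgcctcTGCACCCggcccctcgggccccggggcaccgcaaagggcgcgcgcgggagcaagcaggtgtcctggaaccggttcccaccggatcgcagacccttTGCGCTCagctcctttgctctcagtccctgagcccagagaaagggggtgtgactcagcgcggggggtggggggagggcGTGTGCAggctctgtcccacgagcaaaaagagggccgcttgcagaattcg

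The remaining cores lie just after the RefSeq start and are shown with their flanks. They sit at chr8:94179083-94179105 and chr8:94179101-94179123 in Mt1, and at chr8:94172614-94172636 in Mt2, where the core is on the minus strand. In GENCODE the Mt2 gene starts further on, at chr8:94172664, so by that annotation its core lies before the gene.
Mt1 E: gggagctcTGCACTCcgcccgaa
Mt1 F: ccgaaaagTGCGCTCggctctgc
Mt2 G: ttcgggtcGTGCGCAggcccagg

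Slc30a1 held 2 cores, both on the minus strand, at chr1:191906730-191906752 and chr1:191906803-191906825. The window of Tfrc held an overlapping pair from the palindromic letters TGCGCGCGCA. These are matches of letters in windows set by an annotated start, not tested sites.
Slc30a1 H: ggggttccGAGTGCAaagcaaag
Slc30a1 I: tccgggccGAGCGCAgtcgccgc

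Nlrp3 itself was listed at 0 in all 6 Nlrp3-/- libraries and between 9.24 and 33.6 FPKM in wild-type ones. Library sums of FPKM lay between 283278 and 299393. The number of reads is unknown, and the depth relative to the shallowest library, taken from steps in low values, reached 1.22. Pearson's r between libraries of a group was 0.990 to 0.993 over tested genes. Xist was between 32.8 and 56.3 FPKM in Nlrp3-/- libraries and at most 0.0416 in wild-type ones, while Ddx3y was listed at 0 in all Nlrp3-/- libraries, so sex and genotype cannot be told apart. The 8 macrophage markers summed to 19974 to 21159 FPKM in wild-type control and 19071 to 19319 in Nlrp3-/- control, and to 11793 to 11862 and 11118 to 11366 with LPS+ATP. Lyz2 made up most of these sums, with means of 18464 and 17693 FPKM in control and 9471 and 9309 with LPS+ATP. The other markers went both ways. With LPS+ATP in wild-type, Cd14 rose from 111 to 530 FPKM, Adgre1 from 237 to 460 and Fcgr1 from 51.2 to 204. There Cd68 fell from 1450 to 814 FPKM, Csf1r from 253 to 178 and Mertk from 32.4 to 18.8, while Itgam overlapped. Of the macrophage markers, Cd68 (-0.73), Csf1r (-0.62), Fcgr1 (-0.40), Adgre1 (-0.36) and Cd14 (-0.21) were lower in Nlrp3-/- control. These values are on the log2 scale of the fit described in the next paragraph, with limma adjusted p of at most 1.360e-05 and none at the fold limit. Markers of other cell types moved with genotype. The 6 fibroblast markers summed to 157 to 162 FPKM in wild-type control and 1165 to 1182 in Nlrp3-/- control, and to 181 to 183 and 891 to 907 with LPS+ATP. The 8 neutrophil and progenitor markers summed to 323 to 359 against 1767 to 1821 in controls, and to 109 to 126 against 489 to 519 with LPS+ATP. The 9 erythroid markers summed to 1.77 to 2.45 against 14.5 to 17.6 FPKM in controls and to 2.02 to 3.15 against 5.07 to 6.29 with LPS+ATP, with Alas2 and Klf1 at or near 0 throughout. The 4 T cell markers and the 4 dendritic cell markers were under 1 FPKM in every library, and the 4 B cell markers summed to at most 5.11. The part of these cells in the genotype differences was not tested, and in bulk RNA fewer cells of a type and less RNA per cell cannot be told apart.

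Differences were fitted by limma on log2(FPKM + 1), a scale on which changes of low genes come out too small. Genes counted as differentially expressed (DEGs) when p, adjusted by Benjamini-Hochberg over all 12622 genes, was under 0.05 and the log2 difference reached 1. The deposited values were not centred between groups: the median tested gene differed by -0.25 between LPS+ATP and control in wild-type and by -0.24 in Nlrp3-/- BMDMs. Scaling the libraries by median ratios moved these differences up by 0.27 and 0.25, and the genotype differences down by 0.13 in control and 0.16 with LPS+ATP. Values under that scaling are given beside a named gene where they turn the direction or the call of a stated difference.

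With LPS+ATP, 4 of the 10 genes were DEGs in wild-type BMDMs, against a background of 19.4% of tested genes. Slc11a2 and Mt2 rose, and Slc40a1 and Tfrc fell. In Nlrp3-/- BMDMs 5 of 10 were DEGs, against 14.8%, with Slc39a14 rising besides. Under median-ratio scaling the split of members went from 2 higher and 2 lower to 4 and 2 in wild-type, and from 3 and 2 to 4 and 2 in Nlrp3-/-, while the share of higher calls over all genes went from 42.5% to 61.5% and from 44.7% to 64.4%. The median absolute log2 difference of the 10 genes was 0.81 in wild-type and 0.87 in Nlrp3-/-, and that of all tested genes was 0.47 and 0.41. Between genotypes, 0 of 10 were DEGs in control, where 6.71% of tested genes were, and 1 of 10, Slc39a14, with LPS+ATP, where 5.05% were. Without the fold limit, 6 of 10 passed in control against 47.8% of tested genes, and 8 of 10 with LPS+ATP against 48.5%. For stimulation these were 9 of 10 against 76.4% in wild-type and 7 of 10 against 74.3% in Nlrp3-/-. Libraries of the compared groups did not overlap for 6 genes between genotypes in control (background 56.0%), 9 with LPS+ATP (57.9%), 10 with stimulation in wild-type (78.1%) and 8 in Nlrp3-/- (77.4%).

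**Figure D1:**
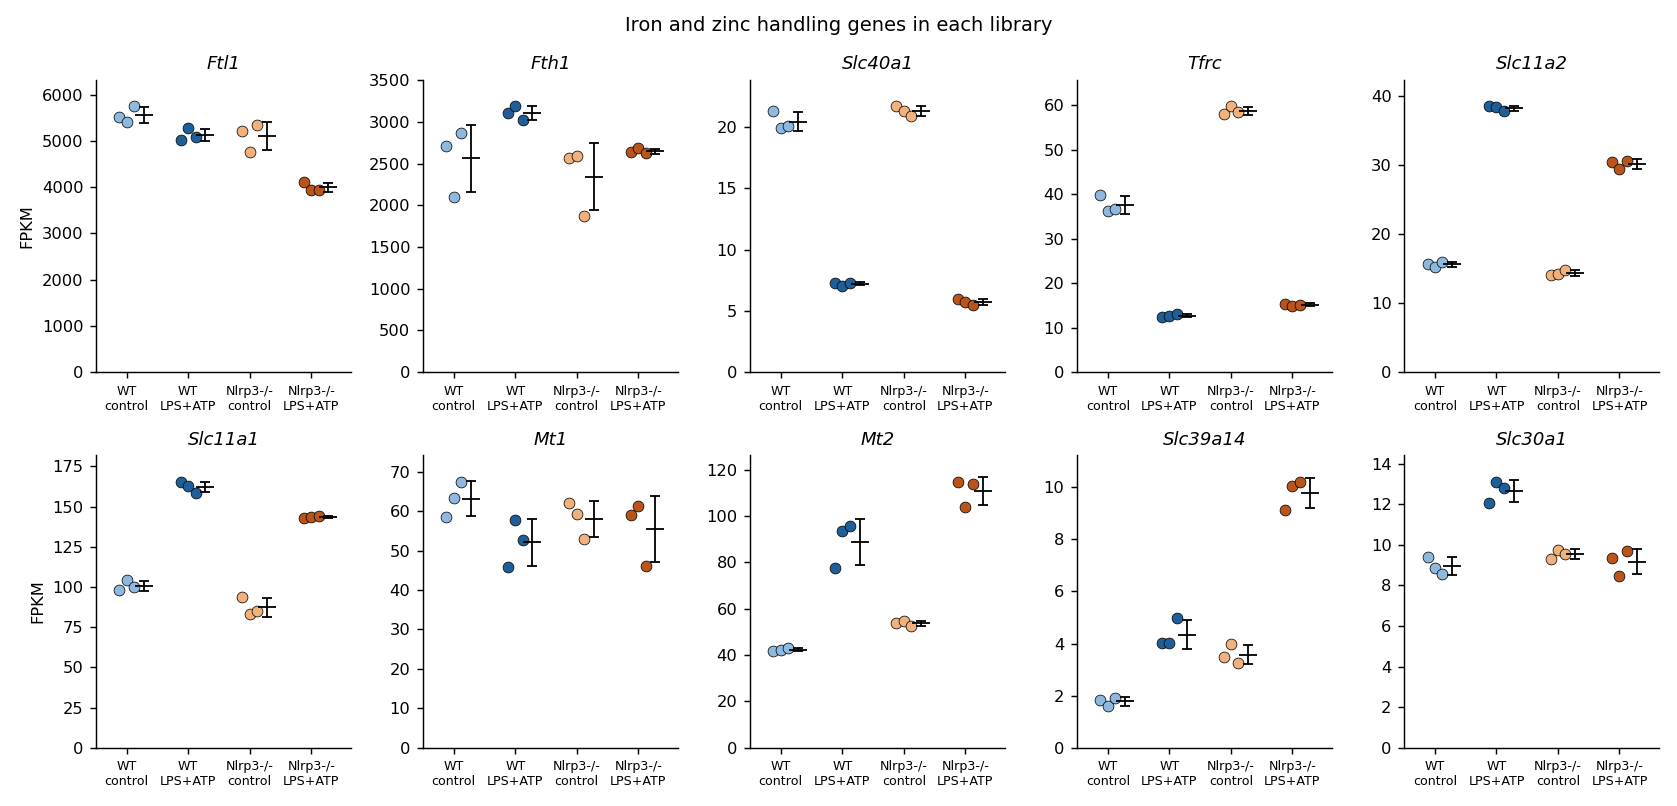
FPKM of the 10 genes in each of the 12 libraries, with a panel per gene, an axis from 0 and groups along the horizontal axis. Points are libraries, and bars beside them give the mean and SD of 3. Slc40a1 and Tfrc are low in both LPS+ATP groups, Slc11a2 and Mt2 are high there, and Slc30a1 is high in wild-type LPS+ATP alone.

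The ferritin genes were among the most abundant transcripts. Ftl1, the light chain, which helps iron form its mineral core, was at place 3 to 6 among all genes in every library. Fth1, the heavy chain, which oxidises iron as it enters the shell, was at place 7 to 13. Together with Slc11a1, they were the top 3 of the 10 genes in every group, with no overlap between neighbours in that order. Below them the order changed between groups. Neighbours overlapped for Tfrc and Slc30a1 in wild-type LPS+ATP, for Tfrc, Mt1 and Mt2 in Nlrp3-/- control, and for Slc39a14 and Slc30a1 in Nlrp3-/- LPS+ATP.

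Fth1 was 2712, 2104 and 2871 FPKM in wild-type control and 3105, 3189 and 3030 with LPS+ATP. It was 2573, 2588 and 1878 FPKM in Nlrp3-/- control and 2642, 2684 and 2623 with LPS+ATP. Wild-type control replicate 2 and Nlrp3-/- control replicate 3 were low against their own groups, and the stimulated libraries lay close together and above all controls of their genotype. The difference with LPS+ATP was 0.29 ± 0.13 (SE) in wild-type (limma adjusted p = 0.0573) and 0.19 ± 0.13 in Nlrp3-/- (adjusted p = 0.196), and neither passed the test. Under median-ratio scaling these became 0.62 (adjusted p = 0.00106) and 0.48 (adjusted p = 0.00604). Between genotypes with LPS+ATP the libraries did not overlap, yet the difference of -0.23 ± 0.13 did not pass (adjusted p = 0.164), and it was -0.42 under median-ratio scaling (adjusted p = 0.0175).

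Ftl1 was 5513, 5405 and 5749 FPKM in wild-type control and 5029, 5287 and 5075 with LPS+ATP. Nlrp3-/- control libraries held 5215, 4765 and 5354 FPKM, and those with LPS+ATP 4111, 3948 and 3929. The Nlrp3-/- LPS+ATP libraries were the lowest of all and overlapped with no other group. Ftl1 differed by -0.35 ± 0.04 with LPS+ATP in Nlrp3-/- BMDMs (limma adjusted p = 1.689e-05), and this was -0.06 under median-ratio scaling (adjusted p = 0.224). In wild-type BMDMs the difference was -0.11 ± 0.04 (adjusted p = 0.0290) and turned to 0.22 under median-ratio scaling (adjusted p = 7.194e-04), so its direction with LPS+ATP depends on the scaling. Between genotypes with LPS+ATP it was -0.36 ± 0.04 (adjusted p = 3.275e-05) and kept its sign under TPM (-0.34) and median-ratio scaling (-0.55). Ftl1 has 7 near copies, which summed to between 7.42% and 11.9% of its FPKM, and the annotated miRNA gene Gm22133 lies inside it on the same strand at 5111 to 8056 FPKM, so reads may be split between them. Adding the near copies gave -0.36 with LPS+ATP in Nlrp3-/- and -0.14 in wild-type.

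Within a library, the FPKM of Ftl1 over that of Fth1 was 2.03, 2.57 and 2.00 in wild-type control and 1.62, 1.66 and 1.67 with LPS+ATP. In Nlrp3-/- it was 2.03, 1.84 and 2.85 in control and 1.56, 1.47 and 1.498 with LPS+ATP. The ratio was lower in all stimulated libraries of a genotype than in all its controls, and a ratio within a library does not change with scaling. An exact two-sided permutation test gave p = 0.1 in each genotype, the smallest that 3 against 3 allows. This ratio and those of Mt2 to Mt1 and Tfrc to Slc40a1 were chosen after the values were seen.

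Ferroportin fell with stimulation in both genotypes. Slc40a1 was 21.3, 19.9 and 20.1 FPKM in wild-type control and 7.29, 7.06 and 7.24 with LPS+ATP. It was 21.7, 21.3 and 20.9 FPKM in Nlrp3-/- control and 5.95, 5.73 and 5.49 with LPS+ATP. The control groups overlapped, and the lowest control lay far above the highest stimulated library. Slc40a1 was 2.84-fold lower with LPS+ATP in wild-type (log2 difference -1.39 ± 0.04, limma adjusted p = 4.875e-11) and 3.72-fold lower in Nlrp3-/- (-1.73 ± 0.04, adjusted p = 1.009e-11). The fall was larger in Nlrp3-/- by 0.34 ± 0.06 on the log2 scale (interaction adjusted p = 0.00104). Among stimulated libraries those of Nlrp3-/- were the lower (-0.29 ± 0.04, adjusted p = 1.182e-04), while in control the difference was 0.06 ± 0.04 (adjusted p = 0.278) and turned to -0.09 under median-ratio scaling.

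Tfrc, whose product takes up transferrin-bound iron, fell as well. It was 39.9, 36.2 and 36.6 FPKM in wild-type control and 12.5, 12.6 and 13.0 with LPS+ATP. Nlrp3-/- control libraries held 57.9, 59.8 and 58.5 FPKM, and those with LPS+ATP 15.4, 14.7 and 15.1. All 4 groups were apart from each other. Tfrc was 2.96-fold lower with LPS+ATP in wild-type (-1.49 ± 0.04, limma adjusted p = 2.448e-11) and 3.89-fold lower in Nlrp3-/- (-1.89 ± 0.04, adjusted p = 4.321e-12). The difference between these changes was -0.40 ± 0.06 (interaction adjusted p = 3.461e-04).

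In control BMDMs, Tfrc was 1.56-fold higher in Nlrp3-/- than in wild-type (0.63 ± 0.04, limma adjusted p = 1.490e-07), below the fold limit for a DEG. With LPS+ATP it was 1.19-fold higher (0.23 ± 0.04, adjusted p = 5.231e-04), and 0.05 on the log2 scale under median-ratio scaling (adjusted p = 0.285). TfR1 is abundant on dividing cells. The 6 proliferation markers summed to 69.3 to 70.6 FPKM in wild-type control, 21.5 to 23.6 in wild-type LPS+ATP, 80.6 to 82.2 in Nlrp3-/- control and 37.5 to 37.6 in Nlrp3-/- LPS+ATP. With LPS+ATP, 5 of 6 were lower as DEGs in wild-type, against 11.2% of tested genes, and 4 of 6 in Nlrp3-/-, against 8.21%. Mki67, however, differed by 0.02 in wild-type (limma adjusted p = 0.655) with overlapping libraries. Between genotypes, 0 of the 6 markers were DEGs in control, where 6.71% of tested genes were. With LPS+ATP 5 of 6 were higher in Nlrp3-/- as DEGs, against 4.48% of tested genes, while Mki67 was lower (-0.46, limma adjusted p = 1.541e-06). The part of these markers in the Tfrc difference was not tested.

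The mRNAs of TfR1 and ferroportin fell side by side. The FPKM of Tfrc over that of Slc40a1 was 1.87, 1.82 and 1.82 in wild-type control and 1.71, 1.79 and 1.79 with LPS+ATP. In Nlrp3-/- it was 2.67, 2.80 and 2.80 in control and 2.59, 2.57 and 2.76 with LPS+ATP. Every Nlrp3-/- library lay above every wild-type library, and the stimulated libraries lay just below or among the controls of their genotype. An exact two-sided permutation test gave p = 0.1 between genotypes in control and with LPS+ATP, the smallest possible, and p = 0.1 in wild-type and 0.2 in Nlrp3-/- between stimulated and control.

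**Figure D2:**
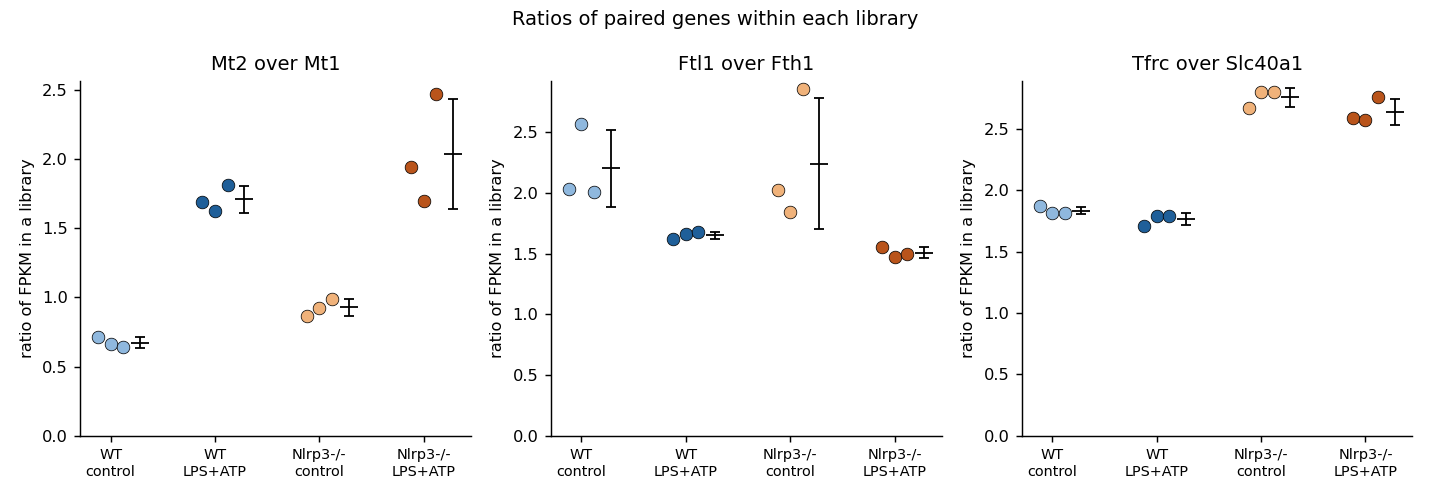
Ratio of the FPKM of 2 genes within each of the 12 libraries, for Mt2 over Mt1, Ftl1 over Fth1 and Tfrc over Slc40a1, on axes from 0. Points are libraries, and bars give the mean and SD of 3. The Mt2 to Mt1 ratio is higher and the Ftl1 to Fth1 ratio lower in stimulated libraries, and the Tfrc to Slc40a1 ratio is higher in Nlrp3-/- libraries.

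The mRNAs of the metal transporters of endosomes and phagosomes rose, and transport was not measured. Slc11a2 (DMT1), which passes iron from the endosome to the cytosol, was 15.6, 15.2 and 15.97 FPKM in wild-type control and 38.5, 38.3 and 37.7 with LPS+ATP. It was 14.02, 14.1 and 14.8 FPKM in Nlrp3-/- control and 30.5, 29.3 and 30.6 with LPS+ATP. The groups did not overlap, with wild-type above Nlrp3-/- in each state. Slc11a2 was 2.45-fold higher with LPS+ATP in wild-type (1.24 ± 0.03, limma adjusted p = 3.008e-11) and 2.10-fold in Nlrp3-/- (1.02 ± 0.03, adjusted p = 2.192e-10). The rise was smaller in Nlrp3-/- by 0.22 ± 0.05 on the log2 scale (interaction adjusted p = 0.00606).

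Slc11a1 encodes NRAMP1, which is known to draw metal ions out of the phagosome and for its part in resistance to intracellular microbes. Whether the NRAMP1 protein works in these BMDMs was not measured. Slc11a1 was 98.1, 104 and 99.8 FPKM in wild-type control and 165, 163 and 159 with LPS+ATP. Nlrp3-/- control libraries held 93.9, 82.9 and 85.2 FPKM, and those with LPS+ATP 143, 144 and 144. The groups did not overlap. The rise was 1.61-fold in wild-type (0.68 ± 0.04, limma adjusted p = 4.567e-08) and 1.65-fold in Nlrp3-/- (0.71 ± 0.04, adjusted p = 4.075e-08), under the fold limit, and reached 1.01 and 1.00 under median-ratio scaling. The difference between the changes was 0.03 ± 0.06 (interaction adjusted p = 0.749) and -0.01 under that scaling. Slc11a1 was lower in Nlrp3-/- by 0.20 ± 0.04 on the log2 scale in control (adjusted p = 0.00215) and by 0.17 ± 0.04 with LPS+ATP (adjusted p = 0.00592).

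**Figure D3:**
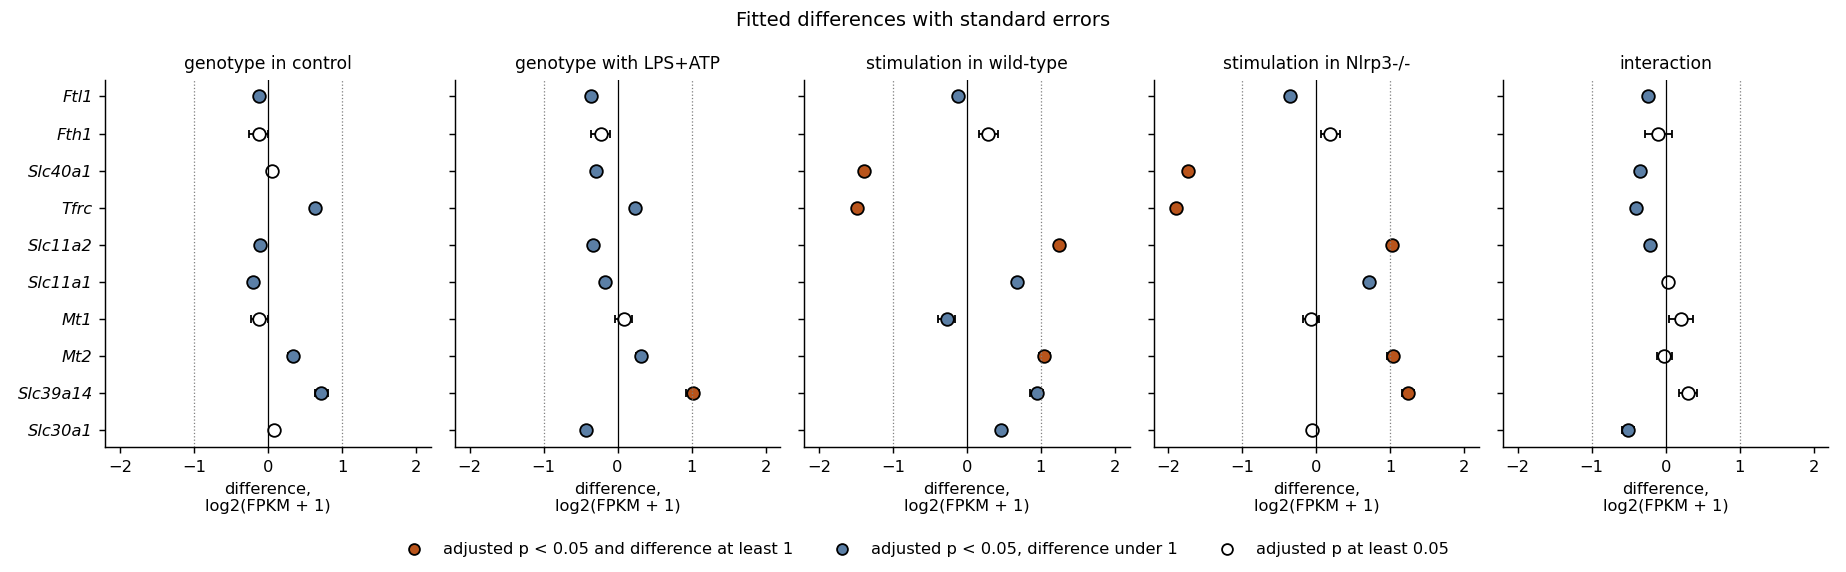
Fitted log2(FPKM + 1) differences of the 10 genes for 5 comparisons, with standard errors as bars and dotted lines at the fold limit of 1. Orange points are DEGs, blue points passed adjusted p alone, and white points did not pass. The orange points are the 4 and 5 DEGs of stimulation and Slc39a14 between genotypes with LPS+ATP.

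The metallothioneins parted. Mt2 was 41.8, 42.1 and 43.0 FPKM in wild-type control and 77.5, 93.7 and 95.7 with LPS+ATP. It was 53.7, 54.8 and 52.5 FPKM in Nlrp3-/- control and 115, 104 and 114 with LPS+ATP. The 4 groups did not overlap, and the stimulated libraries of Nlrp3-/- were the highest. The antisense gene Gm45774, which overlaps Mt2, was at most 0.486 FPKM. Mt2 rose 2.10-fold in wild-type (1.05 ± 0.07, limma adjusted p = 7.489e-08) and 2.06-fold in Nlrp3-/- (1.03 ± 0.07, adjusted p = 1.135e-07). Both lay close to the fold limit, and without wild-type LPS+ATP replicate 3 the wild-type value was 0.99 (adjusted p = 5.178e-07), which is no longer a DEG. In Nlrp3-/- Mt2 was higher than in wild-type by 0.34 ± 0.07 in control (adjusted p = 0.00195) and 0.32 ± 0.07 with LPS+ATP (adjusted p = 0.00272). These were 0.18 (adjusted p = 0.0498) and 0.13 (adjusted p = 0.149) under median-ratio scaling.

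Mt1, which lies a short way downstream of Mt2 on chromosome 8, did not follow. It was 58.6, 63.4 and 67.4 FPKM in wild-type control and 45.9, 57.7 and 52.8 with LPS+ATP. Nlrp3-/- libraries held 62.0, 59.2 and 53.0 FPKM in control and 59.0, 61.4 and 46.0 with LPS+ATP. The Nlrp3-/- groups overlapped, while the wild-type groups were apart by less than 1 FPKM. Mt1 differed with LPS+ATP by -0.28 ± 0.11 in wild-type (limma adjusted p = 0.0440) and by -0.07 ± 0.11 in Nlrp3-/- (adjusted p = 0.572), and both signs turned under median-ratio scaling, to 0.05 (adjusted p = 0.721) and 0.21 (adjusted p = 0.120). Its genotype differences were -0.12 ± 0.11 in control (adjusted p = 0.420) and 0.08 ± 0.11 with LPS+ATP (adjusted p = 0.583), the latter -0.10 under median-ratio scaling.

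The FPKM of Mt2 over that of Mt1 does not depend on scaling. It was 0.714, 0.664 and 0.638 in wild-type control and 1.69, 1.62 and 1.81 with LPS+ATP. In Nlrp3-/- it was 0.866, 0.926 and 0.991 in control and 1.94, 1.69 and 2.47 with LPS+ATP. Mt1 was thus the higher of the pair in all 6 controls and Mt2 in all 6 stimulated libraries. The log2 ratio rose by 1.35 in wild-type and 1.12 in Nlrp3-/- (exact two-sided permutation p = 0.1 in each, the smallest possible). The promoter windows printed above hold MRE cores in both genes.

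Slc39a14 (ZIP14), a cell-surface importer of zinc and of iron that is not bound to transferrin, was the lowest of the 10 genes in control libraries of both genotypes. It was 1.81, 1.60 and 1.92 FPKM in wild-type control and 4.02, 4.01 and 4.998 with LPS+ATP. Nlrp3-/- control libraries held 3.48, 3.98 and 3.26 FPKM, and those with LPS+ATP 9.12, 10.04 and 10.2. All 4 groups were apart, with Nlrp3-/- control just below wild-type LPS+ATP. The rise with LPS+ATP was 2.44-fold in wild-type (0.94 ± 0.09, limma adjusted p = 1.298e-06) and 2.74-fold in Nlrp3-/- (1.24 ± 0.09, adjusted p = 1.459e-07). In wild-type it missed the fold limit on this scale and passed it with a pseudocount of 0.1 (1.24), as TPM (1.20) and under median-ratio scaling (1.20). The difference between the changes was 0.30 ± 0.12 (interaction adjusted p = 0.0920).

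Slc39a14 was also the gene of the 10 with the largest genotype difference. In control it was 2.01-fold higher in Nlrp3-/- (0.72 ± 0.09, limma adjusted p = 3.303e-05), and with LPS+ATP 2.25-fold (1.02 ± 0.09, adjusted p = 2.065e-06). The latter stood at the fold limit. It fell below it without wild-type LPS+ATP replicate 1 (0.98), wild-type LPS+ATP replicate 2 (0.97), Nlrp3-/- LPS+ATP replicate 2 (1.00) or Nlrp3-/- LPS+ATP replicate 3 (0.99), and under median-ratio scaling (0.86), where the adjusted p stayed between 7.617e-06 and 2.235e-05. The fibroblast markers moved the same way between genotypes. Of them 5 of 6 were higher as DEGs in control, against 6.02% of tested genes, and 4 of 6 with LPS+ATP, against 4.48%. Their part in the Slc39a14 difference was not tested.

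Slc30a1 (ZnT1), which carries zinc out of the cytosol, behaved differently in the 2 genotypes. It was 9.42, 8.84 and 8.55 FPKM in wild-type control and 12.1, 13.1 and 12.8 with LPS+ATP. It was 9.28, 9.75 and 9.57 FPKM in Nlrp3-/- control and 9.33, 8.48 and 9.70 with LPS+ATP. The wild-type LPS+ATP libraries stood above the other 9, which overlapped. Slc30a1 rose 1.42-fold in wild-type (0.46 ± 0.05, limma adjusted p = 1.153e-05). In Nlrp3-/- the difference was -0.05 ± 0.05 (adjusted p = 0.395), 0.0048 as TPM, and 0.21 under median-ratio scaling (adjusted p = 0.00516). The difference between the changes was -0.51 ± 0.08 (interaction adjusted p = 5.308e-04), and -0.53 and -0.55 as TPM and under median-ratio scaling. With LPS+ATP, Slc30a1 was 1.38-fold lower in Nlrp3-/- (-0.43 ± 0.05, adjusted p = 5.511e-05). In control the genotypes differed by 0.08 ± 0.05 (adjusted p = 0.225), and by -0.05 under median-ratio scaling.

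Of the 10 genes, 5 had an interaction adjusted p under 0.05 (Slc30a1, Tfrc, Slc40a1, Ftl1 and Slc11a2), all negative, against 27.7% of tested genes with 13.0% negative. None reached a difference of 1, which 2.15% of tested genes did with that adjusted p. For Ftl1 the interaction was -0.24 ± 0.06 (limma adjusted p = 0.0128), from -0.28 under median-ratio scaling to -0.22 with near copies added or as TPM. Genes of negative interaction included both kinds, those that rose less in Nlrp3-/- BMDMs (Slc11a2 and Slc30a1) and those that fell more (Tfrc and Slc40a1).

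**Figure D4:**
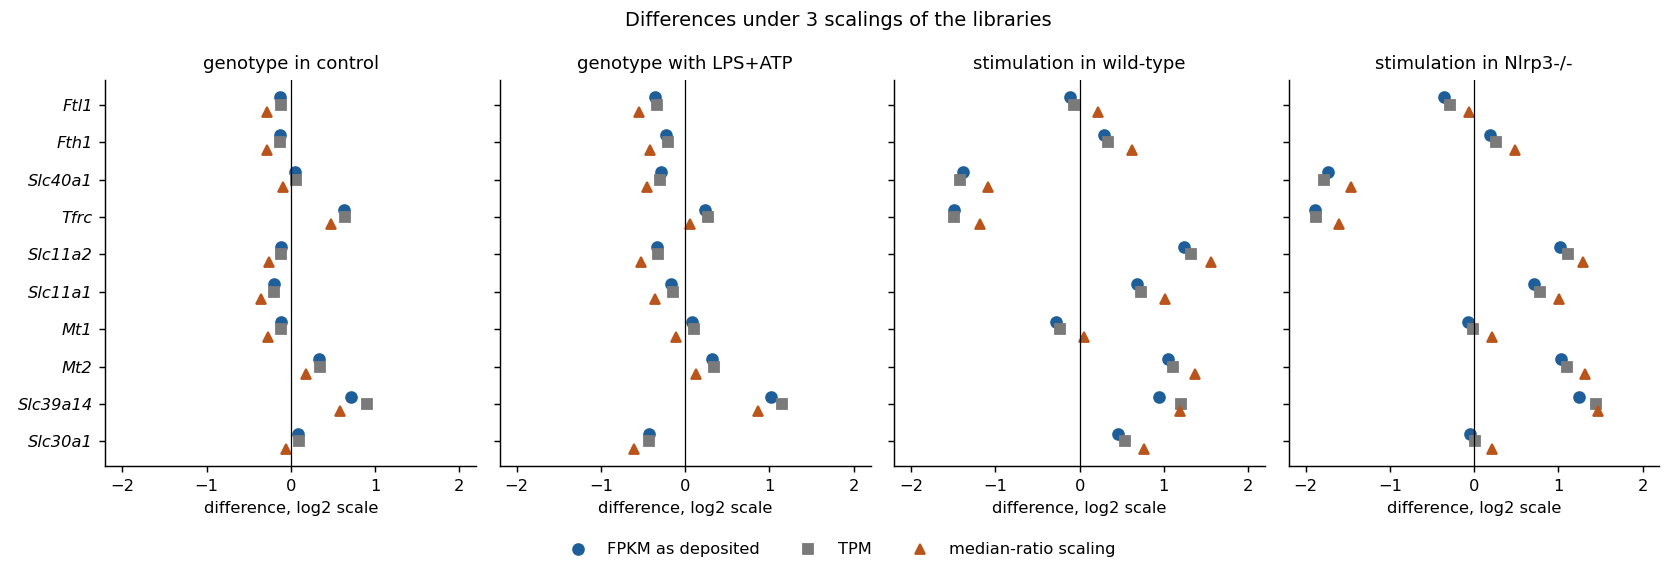
Log2 differences of the 10 genes from FPKM as deposited (circles), TPM (squares) and median-ratio scaling (triangles), with a panel for each comparison within a state or genotype. The triangles lie to the left in the genotype panels and to the right in the stimulation panels, and cross 0 for Slc40a1, Slc30a1, Mt1 and Ftl1 in some panels.

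A wider list of 82 genes of iron, heme and zinc metabolism gave the setting. All 82 were matched, 4 of them through RefSeq synonyms, and 63 passed the filter, while 6 were listed at 0 in every library (Hjv, Ftmt, Slc39a5, Slc30a8, Slc30a10 and Mt4). Among the 63, 9 rose and 11 fell as DEGs with LPS+ATP in wild-type BMDMs, and 6 rose and 5 fell in Nlrp3-/-, and under median-ratio scaling these were 10 and 4, and 9 and 2. Between genotypes 6 of 63 were higher and 0 lower in Nlrp3-/- control, and 4 higher and 0 lower with LPS+ATP. In control these became 4 higher and 1 lower under median-ratio scaling and 10 higher and 1 lower as TPM, and the lower gene was Steap3. Without the fold limit 20 were higher and 10 lower in control, and 23 higher and 8 lower with LPS+ATP (limma adjusted p under 0.05). Of all tested genes 47.8% and 48.5% passed this in either direction. Among the 20 higher in control, Tfr2, Steap2 and Heph passed the filter only through Nlrp3-/- libraries. The background over tested genes was 8.25% higher and 11.2% lower with LPS+ATP in wild-type, 6.64% and 8.21% in Nlrp3-/-, and between genotypes 6.02% higher and 0.689% lower in control and 4.48% and 0.570% with LPS+ATP.

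Heme breakdown held large changes. Among 17 tested genes of heme uptake, breakdown, synthesis and export, 4 rose and 4 fell in wild-type BMDMs with LPS+ATP, and 2 rose and 3 fell in Nlrp3-/-. Hmox1, which frees iron from heme, was 435 ± 10.6 FPKM in wild-type control and 4851 ± 103 with LPS+ATP (SD, n = 3), an 11.2-fold rise (3.48 ± 0.02, limma adjusted p = 6.197e-16). In Nlrp3-/- it went from 414 ± 1.73 to 3195 ± 10.04 FPKM, a 7.72-fold rise, and the changes differed by -0.53 ± 0.03 (interaction adjusted p = 1.079e-06). Blvra, a biliverdin reductase that acts after Hmox1, fell 3.00-fold in wild-type and 2.85-fold in Nlrp3-/-. Blvrb, the other biliverdin reductase of the list, went the opposite way, rising 2.26-fold in wild-type (1.16 ± 0.05, adjusted p = 8.705e-10) and 1.60-fold in Nlrp3-/- (0.67 ± 0.05, adjusted p = 1.502e-07), the latter under the fold limit. Alas1, the first enzyme of heme synthesis outside red cells, rose 3.60-fold and 2.27-fold. Of 13 mitochondrial genes, Slc25a37 (mitoferrin), which brings iron into the mitochondrion, rose 7.60-fold in wild-type and 4.69-fold in Nlrp3-/-, and Abcb10, its known partner in the inner membrane, fell 2.58-fold in wild-type (-1.03 ± 0.07, adjusted p = 1.372e-07; -0.79 under median-ratio scaling).

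Among 9 tested genes of iron uptake, reduction and oxidation, 2 rose and 2 fell in wild-type with LPS+ATP, and 3 rose and 1 fell in Nlrp3-/-. Lcn2, which binds the siderophores of bacteria, went from 9.96 ± 0.268 to 218 ± 3.89 FPKM in wild-type (21.9-fold) and from 43.2 ± 1.75 to 208 ± 12.5 in Nlrp3-/- (4.82-fold). Cp, the ferroxidase that works with ferroportin, rose 12.7-fold and 3.27-fold. The changes differed by -2.08 ± 0.06 for Lcn2 (limma interaction adjusted p = 7.490e-09) and by -1.39 ± 0.06 for Cp (adjusted p = 1.104e-07). With LPS+ATP the log2 genotype difference was -0.07 ± 0.05 for Lcn2 (limma adjusted p = 0.262) and -0.02 ± 0.04 for Cp (adjusted p = 0.784), and neither passed. Under median-ratio scaling both did, at -0.26 for Lcn2 (adjusted p = 9.141e-04) and -0.20 for Cp (adjusted p = 0.00347), while as TPM Cp was at 0.0045. Steap3, the endosomal reductase of the transferrin cycle, fell 10.3-fold in wild-type and 5.87-fold in Nlrp3-/-. Hfe, which binds TfR1, fell 3.50-fold and 2.38-fold, the latter -1.12 on the log2 scale and -0.85 under median-ratio scaling. Fbxl5, which directs the breakdown of IRP2 when iron is ample, rose 3.55-fold in wild-type (1.60 ± 0.11, adjusted p = 7.411e-08) and 1.88-fold in Nlrp3-/- (0.79 ± 0.11, adjusted p = 3.712e-05), the latter under the fold limit and at 1.04 under median-ratio scaling.

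All 9 of these genes differed between genotypes in control (limma adjusted p under 0.05), against 47.8% of tested genes. Of them 8 were higher in Nlrp3-/-, 4 as DEGs, against 6.02% of tested genes that were higher as DEGs. Tfr2, Steap2 and Heph were under 1 FPKM in every wild-type library and passed the filter only through Nlrp3-/- libraries. Their place among the higher genes was thus partly set by the filter, and none of the 4 DEGs is among them. Over all tested genes, 89.7% of the DEGs in control were higher in Nlrp3-/-. Lcn2 was 4.34-fold, Steap1 4.87-fold, Cp 3.84-fold and Trf (transferrin) 2.21-fold higher in Nlrp3-/- control, and the limma adjusted p ranged from 4.277e-11 for Lcn2 to 1.890e-08 for Steap1. Trf was at 1.13 on the log2 scale and at 0.98 under median-ratio scaling, which is no longer a DEG. Tfr2 (0.93), Steap4 (0.86), Steap2 (0.80) and Heph (0.72) were higher under the fold limit, and all 4 passed it as TPM, at 1.23 to 1.74. Steap3 was lower, at 7.05 against 14.04 FPKM (-0.94 ± 0.15, adjusted p = 4.192e-04). It reached the fold limit under median-ratio scaling (-1.06, adjusted p = 1.541e-04), as TPM, and without Nlrp3-/- control replicate 2 (-1.07) or replicate 3 (-1.04). Leaving out a library could also weaken it, with a range of -1.07 to -0.70. Its Nlrp3-/- control libraries were spread, at 4.69, 8.43 and 8.04 FPKM. With LPS+ATP, Steap1 was 3.62-fold and Trf 2.94-fold higher. Bmp6, a signal for hepcidin in the liver, was 3.43-fold higher in control (1.01 ± 0.09, adjusted p = 1.895e-06) and 3.24-fold with LPS+ATP. The control value of Bmp6 rests near the limit, at 0.88 under median-ratio scaling, 0.92 without wild-type control replicate 3 and 1.00 without Nlrp3-/- control replicate 3. Lcn2 is also abundant in neutrophils, whose markers were higher in Nlrp3-/- control as given above (7 of 7 tested as DEGs, against 6.02% of tested genes). The part of these cells in the Lcn2 difference was not tested.

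Of 10 tested ZIP importers, which bring zinc into the cytosol, 1 rose and 2 fell in wild-type with LPS+ATP and 0 were DEGs in Nlrp3-/-. In Nlrp3-/- 7 of 10 had an adjusted p under 0.05 by limma, near the 74.3% of all tested genes. There Slc39a4 reached 1.20 under median-ratio scaling and 1.02 without Nlrp3-/- control replicate 1. In wild-type Slc39a4 rose 2.43-fold, and Slc39a11 and Slc39a10 fell 2.65-fold and 3.03-fold. Slc39a11 was at -0.98 under median-ratio scaling. Of 5 tested ZnT exporters, Slc30a5 fell 2.21-fold in wild-type (-1.01 ± 0.04, limma adjusted p = 1.997e-09), with -0.72 under median-ratio scaling, -0.96 without wild-type control replicate 1 and -0.98 without wild-type LPS+ATP replicate 1. Slc30a4 was 2.91-fold higher in Nlrp3-/- control and 2.69-fold with LPS+ATP. The other metallothioneins were scarce, and of the list with them Mtf1 alone passed the filter.

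**Figure D5:**
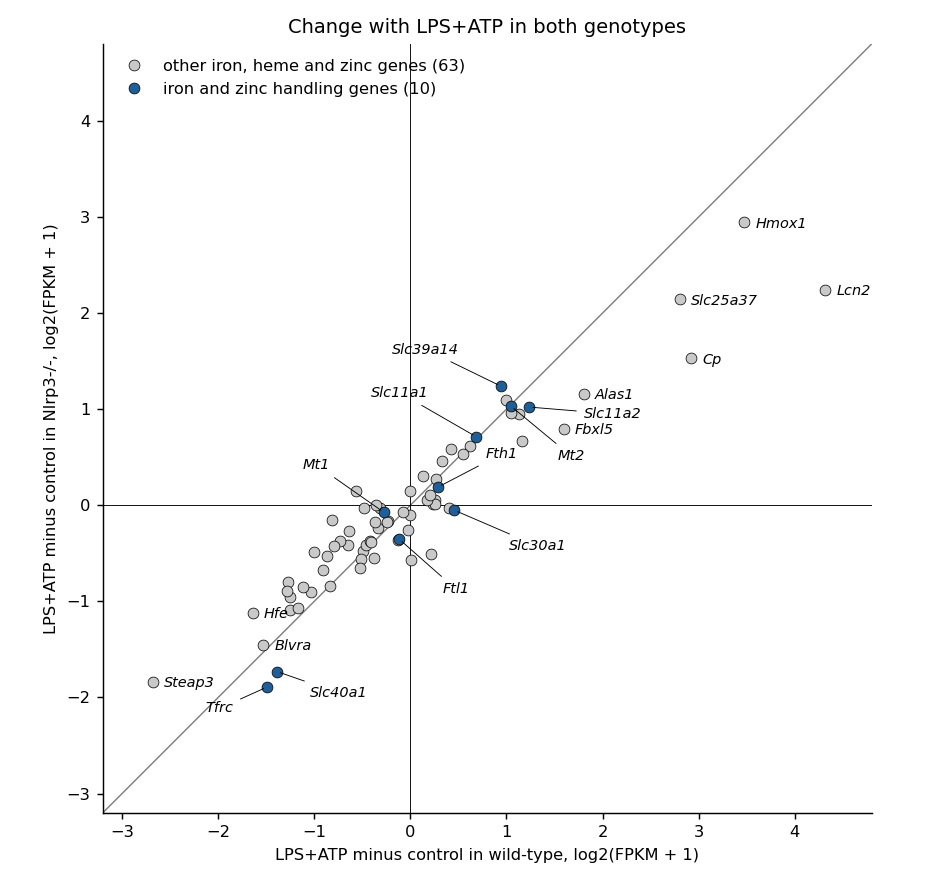
Log2(FPKM + 1) difference between LPS+ATP and control in wild-type (horizontal) and Nlrp3-/- BMDMs (vertical) for the 10 genes (blue) and the 63 tested genes of the wider list (grey). The line marks equal change. Lcn2, Cp, Slc25a37 and Hmox1 lie to the right of the line, and Tfrc and Slc40a1 below it.

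Genes outside these lists shared the patterns of the members closely. Over the 12 libraries, which fall into 4 groups, Pearson's r of log2(FPKM + 1) with Mt2 was 0.992 for Ywhag, Psma6 and Rgs16. With Slc40a1 it was 0.997 for Fabp4, Dock8 and F13a1. With Tfrc it was 0.998 for Chil3 and Plxna2 and 0.996 for Acadm. These are descriptions, since libraries of a group are alike in many genes.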

How the data were processed

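The values were deposited by the authors as FPKM, with a row per gene and a column per library. They came from total RNA prepared with an Illumina TruSeq kit, and no further scaling is stated. The aligner and counter are not given in the sources used here. Per the labels the build was GRCm39. The table holds no coordinates, so positions and transcripts came from GENCODE M21 on GRCm38, and promoters from RefSeq GRCm38.p6. No column of per-sample values was left out. FPKM are not counts, so limma 3.58.1 in R 4.3.3 was run on log2(FPKM + 1), with 4 group means in 1 fit and a variance trend. Scripts were first tested on simulated data. Near-identical copies came from a blastn 2.17.0+ search at 95% identity. Python 3.11.15 was used for tables.

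The 10 genes and all lists were chosen with earlier results of these data known. Besides the 10 genes, the text names, per list and comparison, at most 3 DEGs with the largest differences, further genes of the lists chosen after their values were seen (such as Trf and Steap3 in control, and Blvrb), and the 3 genes most like Mt2, Slc40a1 and Tfrc. Alternatives were a pseudocount of 0.1, no filter, at least 5 FPKM, TPM, median-ratio scaling, a replicate block, the compared groups alone, no fold limit and each library left out. Adding near copies was chosen after seeing the data.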

Additional observations from a re-analysis of the deposited data

Results flagged for a closer look

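The change with LPS+ATP differed between wild-type and Nlrp3-/- BMDMs in 5 of the 10 genes by limma's interaction term (adjusted p under 0.05 over all tested genes). The difference of changes, Nlrp3-/- minus wild-type on the log2(FPKM + 1) scale, was -0.51 ± 0.08 (SE) for Slc30a1 (adjusted p = 5.308e-04), which rose by 0.46 in wild-type and differed by -0.05 in Nlrp3-/-. It was -0.40 ± 0.06 for Tfrc (adjusted p = 3.461e-04) and -0.34 ± 0.06 for Slc40a1 (adjusted p = 0.00104), which fell further in Nlrp3-/-. For Ftl1 it was -0.24 ± 0.06 (adjusted p = 0.0128), and for Slc11a2, which rose less in Nlrp3-/-, -0.22 ± 0.05 (adjusted p = 0.00606). An interaction adjusted p under 0.05 was found for 27.7% of tested genes. Groups of 3 libraries are too small to test for a library that stands apart.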

How the results depend on the processing

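Of 990 values of the 10 genes under the alternatives, 962 kept their direction and call, 6 lost the call, 5 gained it and 17 turned direction. Of 1047 values of named pathway genes, 1015 kept both, 10 lost the call, 18 gained it and 4 turned direction. Without the fold limit the calls among the 10 genes were 6 (genotype, control), 8 (genotype, LPS+ATP), 9 (stimulation, wild-type) and 5 (interaction), and among the 63 pathway genes 30, 31, 49 and 22, with 43 for stimulation in Nlrp3-/-. A pseudocount of 0.1 gave 11 pathway genes between genotypes in control and 7 with LPS+ATP, and TPM gave 11 in control. Median-ratio scaling left 0 of the 10 genes between genotypes with LPS+ATP, by its construction lowering these differences.

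Leaving out 1 library at a time gave 0 to 1 of the 10 genes between genotypes with LPS+ATP and 3 to 4 for stimulation in wild-type, with 0 (genotype, control), 5 (stimulation, Nlrp3-/-) and 0 (interaction) each time. The pathway calls were 5 to 7, 4, 20 to 22, 11 to 12 and 2 to 3 in the same order of genotype, stimulation and interaction.

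Directions turned under median-ratio scaling for Slc40a1 (-0.091) and Slc30a1 (-0.054) between genotypes in control, for Mt1 (-0.10) with LPS+ATP, for Ftl1 (0.22) and Mt1 (0.048) with stimulation in wild-type, for Mt1 (0.21) and Slc30a1 (0.21; as TPM 0.0048) in Nlrp3-/-, for Ireb2 (0.17) with stimulation in wild-type, and for the Slc11a1 interaction (-0.0067), and as TPM for Cp (0.0045) between genotypes with LPS+ATP. With a library left out, the difference ran from -0.27 to 0.023 for Fth1 between genotypes in control, from -0.0034 to 0.21 for Mt1 and from -0.036 to 0.019 for Cp between genotypes with LPS+ATP, from -0.026 to 0.053 for Mtf1 with stimulation in Nlrp3-/- and from -0.15 to 0.054 for Mt1 with stimulation in Nlrp3-/-. The interaction ran from -0.25 to 0.036 for Fth1, from -0.0046 to 0.084 for Slc11a1 and from -0.11 to 0.037 for Mt2. Among the values so turned, only those of Ftl1 and Mt1 with stimulation in wild-type had passed adjusted p under 0.05 as reported. The cause was not tested.

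Replicate numbers did not pair the libraries: of 18 same-numbered pairs, 0 had a correlation of deviations over 0.1 (-0.0566 to 0.0528), and 7 correlated best with their own number. With the replicate block the 10 genes gave 0, 1, 4, 5 and 0 calls, and the pathway list 6, 4, 20, 11 and 2. FPKM without read counts limits what can be said of counting error.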

Other observations

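The proteins that read iron and zinc also had mRNA values, named here after they were seen. Aco1, whose product is IRP1 when it lacks its iron-sulfur cluster, was 24.8 ± 0.336 FPKM in wild-type control and 12.7 ± 0.516 with LPS+ATP (SD, n = 3), a difference of -0.91 on the log2 scale (limma adjusted p = 1.845e-09). In Nlrp3-/- it was 24.5 ± 0.937 and 15.01 ± 0.316 FPKM (-0.67, adjusted p = 3.835e-08). Ireb2, which encodes IRP2, differed with LPS+ATP by -0.13 in wild-type (adjusted p = 0.0782; 0.17 under median-ratio scaling, adjusted p = 0.0283) and by -0.36 in Nlrp3-/- (adjusted p = 2.665e-04). The Ireb2 fall in Nlrp3-/- was smaller under median-ratio scaling. That scaling divided Nlrp3-/- control libraries by 1.17 to 1.19 and those with LPS+ATP by 0.962 to 0.967. Much of the Ireb2 fall there thus depends on the scaling. Mtf1, which binds metal response elements, was 2.64 ± 0.0826 FPKM in wild-type control and 3.35 ± 0.117 with LPS+ATP, against 2.60 ± 0.0387 and 2.64 ± 0.199 in Nlrp3-/-. Its change was 0.26 in wild-type (adjusted p = 7.298e-04) and 0.01 in Nlrp3-/- (adjusted p = 0.813), and the interaction was -0.24 (adjusted p = 0.0278). Median-ratio scaling moved tested genes up by a median of 0.27 in wild-type and 0.25 in Nlrp3-/-. The flat Mtf1 value in Nlrp3-/- thus depends on the scaling.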
